A study of Homo sapiens with 12 samples.

Results

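The genes of cholesterol synthesis, sterol sensing, intracellular sterol transport, and export and storage were followed in NB4 cells, a human acute promyelocytic leukaemia line, during all-trans retinoic acid (ATRA) treatment with and without knockdown of the long non-coding RNA HOTAIRM1. The set held 31 genes, chosen by their role with earlier results of these data known. In all, 18404 genes were measured by a probe set annotated to 1 gene. Of the 31 genes, 29 were measured, 16 of 18 for synthesis and all of those for sensing (5), transport (3), and export and storage (5). FDFT1 and HSD17B7 were not analysed here, the latter because its probe set was annotated to a pseudogene as well. Each of 4 arms held 3 arrays. The control arms held 1 array of wild type NB4 cells and 2 of cells with a scrambled shRNA, and the knockdown arms held 2 arrays of cells with HOTAIRM1 shRNA1 and 1 of cells with HOTAIRM1 shRNA2. Each kind of cell was measured untreated and after 96 hours of 0.5 µM ATRA, an agent that starts granulocytic differentiation in these cells. The shRNA lines carried a stably integrated lentiviral pLKO.3G vector, were sorted for GFP and came from single-cell clones on soft agar, whereas the wild type cells had no vector and no such selection. Duplicates are called biological in the labels without saying whether they were separate clones, so p-values measure only the spread between these samples, which may be technical.

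Cells make cholesterol from acetyl-CoA through the mevalonate pathway. When sterols in the endoplasmic reticulum are low, SCAP carries the membrane-bound transcription factors SREBP-1 and SREBP-2 (genes SREBF1 and SREBF2) to the Golgi, where they are cut, and the released fragments switch on the synthesis genes. INSIG1 and INSIG2 hold SCAP back when sterols are plentiful. The opposite arm is run by liver X receptors such as that encoded by NR1H3, which are activated by oxidised sterols and switch on ABCA1 and ABCG1, which move cholesterol out of the cell, and MYLIP, a ubiquitin ligase that removes lipoprotein receptors. NPC1 and NPC2 release cholesterol from lysosomes, STARD4 moves it between membranes, and SOAT1 esterifies it for storage.

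The values were log2 expression levels. Array medians ran from 7.73 to 7.81, and correlations between arrays of an arm ran from 0.98 to 0.99. No probe set was named for HOTAIRM1, and the extent of its knockdown was not checked. The promyelocyte list (8 of 9 genes measured) had mean levels of 9.96 to 10.51 on the 6 untreated arrays, with MPO, a granule enzyme, at 13.51 to 13.81, and the hepatocyte list had 6.13 to 6.31. The untreated scrambled shRNA replicate 2 stood apart: the mean of 5 granulocyte markers was 9.82 there against 8.41 to 8.98 on the other 5 untreated arrays, and ITGAM was 10.16 against 7.31 to 8.56. Among the ATRA arrays that of wild type cells stood apart, with a promyelocyte mean of 9.48 against 10.00 to 10.26 on the other 5. For the main member results that moved without either array, values with and without it are given. In bulk RNA, fewer cells of a type and less RNA per cell cannot be told apart. ABCG1 and NR1H3 lay below the array median on 12 of 12 arrays and INSIG2 on 11, so small differences in these dim genes are poorly resolved.

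The promoters of 6 members on which the results turn are shown first, each as the 250 bases before a transcription start in RefSeq (GRCh38.p14), read 5′ to 3′ on the gene's strand. Capitals mark 4 motifs on either strand: the sterol regulatory element TCACNCCAC, the NF-Y box CCAAT, which reads ATTGG when it lies on the other strand, the SP1 box GGGCGG, which then reads CCGCCC, and the E box CACGTG. Matches that overlap each other were all counted. MVK (chr12:109573544-109573793, plus strand) and NSDHL (chrX:152830813-152831062, plus strand) are synthesis genes whose levels went opposite ways in knockdown cells on ATRA. INSIG1 (chr7:155297628-155297877, plus strand) had the smallest p of the 29 genes between untreated knockdown and control cells, SREBF2 (chr22:41832855-41833104, plus strand) encodes the factor that drives synthesis, and STARD4 (chr5:111512536-111512785, minus strand) and ABCA1 (chr9:104928156-104928405, minus strand) rose on ATRA in both arms. The windows of INSIG1, SREBF2, STARD4 and ABCA1 overlap the annotated non-coding genes INSIG1-DT, SREBF2-AS1, STARD4-AS1 and LOC105376196.
MVK: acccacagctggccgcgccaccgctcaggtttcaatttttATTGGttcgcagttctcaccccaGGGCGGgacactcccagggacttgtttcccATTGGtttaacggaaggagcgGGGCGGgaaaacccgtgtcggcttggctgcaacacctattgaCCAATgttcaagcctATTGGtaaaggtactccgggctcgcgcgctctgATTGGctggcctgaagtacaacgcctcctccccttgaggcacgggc
NSDHL: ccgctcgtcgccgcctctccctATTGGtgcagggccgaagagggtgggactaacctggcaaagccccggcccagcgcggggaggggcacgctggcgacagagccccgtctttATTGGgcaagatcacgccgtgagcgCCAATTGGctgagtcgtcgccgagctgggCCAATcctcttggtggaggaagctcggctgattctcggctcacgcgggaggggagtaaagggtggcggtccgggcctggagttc
INSIG1: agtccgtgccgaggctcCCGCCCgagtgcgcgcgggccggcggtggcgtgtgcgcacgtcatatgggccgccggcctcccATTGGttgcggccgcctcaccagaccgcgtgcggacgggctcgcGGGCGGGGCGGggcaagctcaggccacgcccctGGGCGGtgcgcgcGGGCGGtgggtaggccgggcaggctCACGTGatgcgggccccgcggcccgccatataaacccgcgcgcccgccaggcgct
SREBF2: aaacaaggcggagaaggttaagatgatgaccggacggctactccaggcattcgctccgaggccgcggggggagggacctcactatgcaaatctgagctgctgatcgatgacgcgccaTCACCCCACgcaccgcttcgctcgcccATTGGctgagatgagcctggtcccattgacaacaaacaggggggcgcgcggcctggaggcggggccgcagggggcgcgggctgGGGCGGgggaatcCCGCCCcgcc
STARD4: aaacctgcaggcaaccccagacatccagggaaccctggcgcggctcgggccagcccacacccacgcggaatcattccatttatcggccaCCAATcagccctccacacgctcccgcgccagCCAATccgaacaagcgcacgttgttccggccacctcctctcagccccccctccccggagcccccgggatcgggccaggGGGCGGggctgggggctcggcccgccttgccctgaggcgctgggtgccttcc
ABCA1: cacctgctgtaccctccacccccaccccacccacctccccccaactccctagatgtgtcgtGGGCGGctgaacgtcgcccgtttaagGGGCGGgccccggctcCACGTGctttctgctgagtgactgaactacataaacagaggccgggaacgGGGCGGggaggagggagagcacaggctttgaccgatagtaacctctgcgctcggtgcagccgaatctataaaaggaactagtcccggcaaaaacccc

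Promoter windows were matched for 27 of the 31 genes, 7 of them with several windows. CCAAT boxes were found in 13 of 15 synthesis genes (86.7%) and in 20 of all 27 (74.1%), against 40.2% of 15843 protein-coding genes and 32.0% of 35116 windows. MVK and NSDHL each held 5, and NSDHL was the only one of the 27 without a GGGCGG box. That box was in 26 of 27 genes (96.3%) against 62.1% of protein-coding genes and 42.6% of windows. In SREBF2, and in no other of the 27, the letters TCACNCCAC occurred (3.7%, against 1.19% of protein-coding genes and 0.883% of windows), and ABCA1, INSIG1, SCAP and SC5D held the E box (14.8%, against 9.73% and 6.34%). A window of this length need not hold a gene's control elements, and neither a match nor its lack says whether a factor binds there. The CCAAT box was not confined to synthesis genes, since 2 of 3 transport genes and 3 of 4 export and storage genes also held it. It was not shared evenly across roles, since only 2 of 5 sensing genes held it, and ABCA1 did not.

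In control cells the exporter ABCA1 and the transport genes NPC2 and STARD4 rose on ATRA, while synthesis genes went both ways. Of the 29 measured genes, 5 rose (ABCA1, NPC2, STARD4, SC5D and MSMO1) and 4 fell (FDPS, NSDHL, ACAT2 and SCAP) at an adjusted p under 0.05 in limma, where 15.2% of all genes rose and 20.9% fell. In knockdown cells 11 rose (ABCA1, NPC2, STARD4, NPC1, SC5D, MVK, MVD, INSIG1, SREBF1, SREBF2 and MYLIP) and only NSDHL fell, where 10.1% of all genes rose and 14.7% fell. With the deposited values quantile-normalized again, control cells had 8 higher and 2 lower instead of 5 and 4, since PMVK, MVD and SREBF1 passed the threshold, and ACAT2 (adjusted p = 0.0913) and SCAP (adjusted p = 0.214) no longer did. The 2 ATRA responses used separate arrays.

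**Figure D1:**
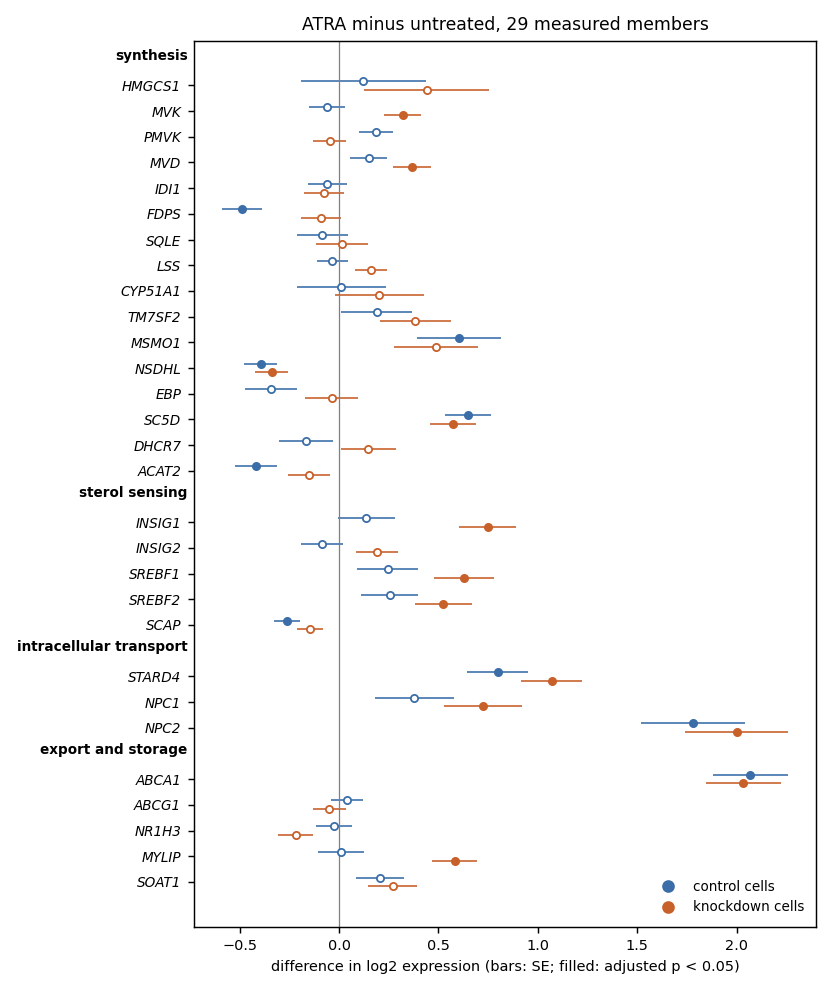
Change in log2 expression on ATRA (x axis, ATRA minus untreated) for the 29 measured genes by role, in control cells (blue) and knockdown cells (orange), 3 arrays per arm. Points are fitted differences, bars their standard errors, and filled points have an adjusted p under 0.05. ABCA1 and NPC2 lie far to the right in both colours, while most synthesis genes lie between -0.50 and 0.50.

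ABCA1, the transporter that loads cholesterol onto lipid-poor apolipoprotein A-I, rose about as much in both arms. Its log2 level was 8.07 in untreated wild type cells, 8.25 and 8.42 in the scrambled shRNA duplicates, 7.81 and 8.26 in the shRNA1 duplicates and 8.63 in shRNA2 cells. After ATRA it was 10.46 in wild type, 10.34 and 10.15 in scrambled, 10.05 and 10.23 in shRNA1 and 10.53 in shRNA2 cells. Every ATRA array lay above every untreated array. The mean change was 2.07 (SE 0.19, 4.20-fold, adjusted p = 5.52e-05) in control cells and 2.03 (SE 0.19, 4.09-fold, adjusted p = 0.000108) in knockdown cells, and the difference between them was -0.04 (SE 0.27, adjusted p = 0.953). Across 20 alternative settings these changes stayed between 1.91 and 2.20 in control cells and between 1.82 and 2.23 in knockdown cells.

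The other genes of the export and storage group did not follow ABCA1 in control cells. ABCG1, which exports cholesterol to mature lipoprotein particles, was 7.41, 7.21 and 7.37 in untreated wild type and scrambled cells and 7.48, 7.29 and 7.34 in the same order after ATRA. In knockdown cells ABCG1 was 7.16, 7.32 and 7.20 before ATRA and 7.24, 7.13 and 7.16 after it. The arms overlapped, and ABCG1 differed by 0.04 (SE 0.08, adjusted p = 0.728) and -0.05 (SE 0.08, adjusted p = 0.738). NR1H3, the receptor gene, differed by -0.02 in control cells and -0.22 in knockdown cells (SE 0.09 each, adjusted p = 0.842 and 0.101). Without the untreated scrambled replicate 2, NR1H3 passed the threshold as lower in knockdown cells, with the value unchanged. SOAT1, the esterifying enzyme, differed by 0.20 and 0.27 (SE 0.12 each, adjusted p = 0.203 and 0.139).

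MYLIP rose in knockdown cells and showed no shift in the mean of control cells. Its level was 9.40, 9.26 and 9.67 in untreated wild type and scrambled cells and 9.35, 9.64 and 9.37 after ATRA. In the shRNA1 duplicates and shRNA2 cells it was 9.28, 9.26 and 9.15 before ATRA and 9.78, 9.93 and 9.72 after it. All 3 knockdown arrays on ATRA lay above the other 9 arrays. The change was 0.01 (SE 0.11, adjusted p = 0.955) in control cells and 0.58 (SE 0.11, 1.5-fold, adjusted p = 0.00339) in knockdown cells. Without the untreated scrambled replicate 2, the highest untreated control array, the change in control cells was 0.12 (adjusted p = 0.41). The median change of the export and storage group was 0.04 in control and 0.27 in knockdown cells, against 0.05 and -0.03 over all genes, and the genes called higher were ABCA1 in control cells and ABCA1 and MYLIP in knockdown cells.

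The transport genes had the highest medians of the 4 roles, 0.80 in control and 1.07 in knockdown cells. Of these genes 2 of 3 and 3 of 3 rose, where 15.2% and 10.1% of all genes did. NPC2, the soluble lysosomal protein that passes cholesterol to NPC1, was 10.31 in wild type, 9.83 and 11.02 in scrambled, 10.33 and 9.89 in shRNA1 and 9.71 in shRNA2 cells before ATRA. After ATRA NPC2 was 11.88, 12.16 and 12.46 on the control arrays and 11.85, 12.05 and 12.03 on the knockdown arrays, in the same order. No ATRA array overlapped an untreated one, although the untreated scrambled replicate 2 stood above the other untreated arrays. NPC2 rose by 1.78 (SE 0.26, 3.44-fold, adjusted p = 0.000398) in control and by 2.0 (SE 0.26, 4.0-fold, adjusted p = 0.00049) in knockdown cells. Without that array the rise in control cells was 2.10 (adjusted p = 4.84e-05).

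STARD4, the sterol carrier, also rose in both arms. Before ATRA it was 8.81 in wild type, 8.56 and 9.19 in scrambled, 8.47 and 8.24 in shRNA1 and 8.34 in shRNA2 cells. After ATRA it was 9.66, 9.54 and 9.75 on the control arrays and 9.17, 9.55 and 9.53 on the knockdown arrays. Within each arm the treated arrays lay above the untreated ones. STARD4 rose by 0.80 (SE 0.15, 1.74-fold, adjusted p = 0.00198) in control and by 1.07 (SE 0.15, 2.10-fold, adjusted p = 0.000678) in knockdown cells. The control call was lost when only scrambled and shRNA1 arrays were fitted (0.77, adjusted p = 0.055), and without the untreated scrambled replicate 2 the rise was 0.97 (adjusted p = 0.000266). NPC1, the lysosomal membrane partner of NPC2, rose in knockdown cells by 0.72 (SE 0.20, adjusted p = 0.0186), and in control cells its change was 0.38 (adjusted p = 0.151). The NPC1 call in knockdown cells was lost without the untreated shRNA1 replicate 2 (adjusted p = 0.0669), the untreated shRNA2 array (0.0574), the ATRA shRNA1 replicate 1 (0.0677) or the ATRA shRNA2 array (0.0637).

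Granulocyte markers rose with these genes in both arms, and monocyte and macrophage markers rose mainly in control cells. Of 5 granulocyte markers measured, 3 rose in control cells and 4 in knockdown cells, where 15.2% and 10.1% of all genes rose, and their mean level went from 8.76 to 9.82 on untreated control arrays to 10.21 to 10.40 on ATRA, and from 8.41 to 8.82 to 9.98 to 10.26 in knockdown cells. Of 8 monocyte and macrophage markers, 4 rose in control cells (CD68, CD14, CD163 and MARCO) and 2 in knockdown cells (CD68 and CD163). Of 8 promyelocyte markers, 1 fell in control cells (MYB), where 20.9% of all genes fell, so that count was not above the background. In knockdown cells 2 fell (MYB and CTSG) and 1 rose (CEBPE), where 14.7% of all genes fell and 10.1% rose. CEBPE, listed here with the promyelocyte markers, was high on the untreated scrambled replicate 2, as the granulocyte markers were. It was 10.02 there against 8.23 to 8.80 on the other untreated arrays. The mean level of the monocyte and macrophage list was 7.12 to 7.15 before and 7.51 to 7.56 after ATRA in control cells. In knockdown cells it was 7.09 to 7.22 before and 7.27 to 7.39 after ATRA. Of the 8 genes, 7 went up on average in control cells, with a median change of 0.29. In knockdown cells 3 went up and 5 went down, with a median of -0.04. Of the members of that list CD163, CD14 and MARCO were dim, at 6.16 to 6.31, 7.12 to 7.37 and 7.47 to 7.75 on untreated arrays. Markers of unrelated cells also shifted in control cells. There 1 of 3 erythroid markers rose, and all 4 hepatocyte markers were higher on average with 0 called (median 0.15). In knockdown cells 0 of either list rose. The part of maturing or other myeloid cells in the rises of ABCA1, NPC2 and STARD4 was not tested.

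**Figure D2:**
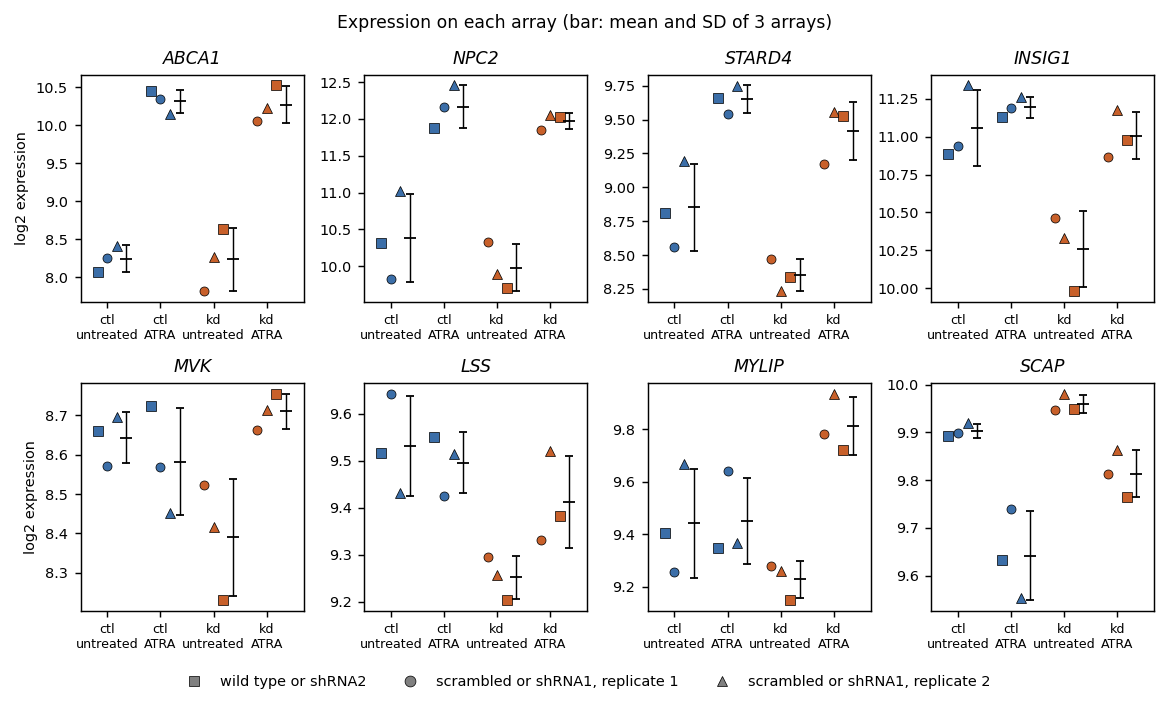
Log2 expression (y axis, own scale for each gene) on each of the 12 arrays for 8 genes, in control (ctl, blue) and knockdown (kd, orange) cells, untreated or on ATRA. Marker shapes tell the cells and replicate numbers apart, and bars show the mean and SD of 3 arrays. ABCA1, NPC2 and STARD4 rose in both arms, INSIG1 started lower in untreated knockdown cells (9.98 to 10.46 against 10.89 to 11.34), and MYLIP was highest in knockdown cells on ATRA (9.72 to 9.93).

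The synthesis genes did not move as a block on ATRA. In control cells 2 of 16 rose and 3 fell, near the 15.2% and 20.9% of all genes, with a median change of -0.05. In knockdown cells 3 rose and 1 fell, against 10.1% and 14.7% of all genes, with a median of 0.15. Over all genes the medians were 0.05 and -0.03. The sign of the control median depended on the processing: it was 0.08 after quantile normalization, 0.03 without the untreated scrambled replicate 1 and -0.12 without the wild type ATRA array. Most of the synthesis genes differed by less than 0.50 on the log2 scale in either arm, a span in which the standard errors ran from 0.08 for LSS to 0.31 for HMGCS1.

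The first steps, from acetoacetyl-CoA to farnesyl pyrophosphate, gave only falls in control cells (ACAT2 and FDPS) and only rises in knockdown cells (MVK and MVD). None of these genes passed the test of a difference between the responses. ACAT2, the cytosolic thiolase that makes acetoacetyl-CoA, fell by 0.42 (SE 0.11, adjusted p = 0.00991) in control cells, and its change in knockdown cells was -0.15 (adjusted p = 0.358). HMGCS1, which condenses acetoacetyl-CoA with acetyl-CoA, spread from 10.02 to 11.44 on untreated control arrays, and its changes of 0.12 and 0.44 (SE 0.31) did not pass the test (adjusted p = 0.781 and 0.372). FDPS, the farnesyl pyrophosphate synthase, fell by 0.49 (SE 0.10, 1.40-fold, adjusted p = 0.00304) in control cells, with no overlap, and its change in knockdown cells was -0.09 (adjusted p = 0.59). MVK, mevalonate kinase, was 8.66, 8.57 and 8.70 in untreated and 8.72, 8.57 and 8.45 in ATRA-treated control cells, which overlapped. In knockdown cells MVK was 8.52, 8.42 and 8.23 before and 8.66, 8.71 and 8.75 after ATRA, a rise of 0.32 (SE 0.09, adjusted p = 0.0241) with no overlap. MVD, the decarboxylase of the same branch, rose in knockdown cells by 0.37 (SE 0.09, adjusted p = 0.0134), and PMVK, the kinase between them, and IDI1, the isomerase after them, passed in neither arm.

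These calls near the threshold depended on single arrays. The MVK rise was lost without the untreated shRNA1 replicate 2 (adjusted p = 0.0535), the untreated shRNA2 array (0.24, adjusted p = 0.0993), the ATRA shRNA1 replicate 2 (0.0633) or the ATRA shRNA2 array (0.0801), and the MVD rise without the untreated or ATRA shRNA1 replicate 2 (adjusted p = 0.0529 and 0.0569). With scrambled and shRNA1 arrays only, the calls of ACAT2 (adjusted p = 0.0546), MVK (0.215) and MVD (0.0928) were lost, and the FDPS call was kept in all 20 settings.

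Among the later, sterol-forming steps SC5D and NSDHL changed the same way in both arms. SC5D, the sterol-C5-desaturase, rose by 0.65 (SE 0.12, 1.57-fold, adjusted p = 0.00138) in control and by 0.57 (SE 0.12, 1.49-fold, adjusted p = 0.00397) in knockdown cells, and its 6 ATRA arrays lay above its 6 untreated arrays. MSMO1, the sterol-C4-methyl oxidase, rose by 0.60 (SE 0.21, adjusted p = 0.0444) in control cells, where the arms overlapped, and its change in knockdown cells was 0.49 (adjusted p = 0.125). NSDHL, which acts beside MSMO1 in removing the C4 methyl groups, fell by 0.39 (SE 0.08, adjusted p = 0.00376) in control and by 0.34 (SE 0.08, adjusted p = 0.0114) in knockdown cells, and its 6 ATRA arrays lay below its 6 untreated arrays. The partner enzymes of this step went opposite ways in control cells. SQLE, the squalene epoxidase, LSS, the lanosterol synthase, and TM7SF2, a sterol reductase, passed in neither arm with all arrays. The same held for EBP, the sterol isomerase, and DHCR7, which makes cholesterol in the last step. TM7SF2 changed by 0.19 in control cells (adjusted p = 0.423), with overlap, and by 0.38 in knockdown cells (adjusted p = 0.153), with no overlap. It passed as higher in both arms without the untreated scrambled replicate 1. EBP passed as lower in control cells without the ATRA scrambled replicate 1.

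MSMO1 was the weakest of these calls. It was lost without the wild type ATRA array (0.34, adjusted p = 0.16), the untreated wild type array (0.53, 0.138) or the untreated scrambled replicate 2 (0.50, 0.123), and, with its value of 0.60 unchanged, without the untreated shRNA1 replicate 1 or any of the 3 ATRA knockdown arrays (0.057 to 0.0578). NSDHL was lost in knockdown cells without the ATRA shRNA1 replicate 1 (adjusted p = 0.0504), and in both arms with scrambled and shRNA1 arrays only (0.0862 and 0.0879). CYP51A1, the lanosterol demethylase, has 2 probe sets that disagreed in control cells: the brighter, used here, differed by 0.01 and the dimmer by -0.63.

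Of 5 sensing genes, 3 were called higher in knockdown cells, where 10.1% of all genes rose. In control cells 1 was called lower, where 20.9% of all genes fell, so that count was near the background. No sensing gene passed the test of a difference between the 2 responses. INSIG1 was 10.89 in wild type and 10.94 and 11.34 in scrambled cells before ATRA, and 11.13, 11.19 and 11.26 after it. In shRNA1 cells INSIG1 was 10.46 and 10.33, and in shRNA2 cells 9.98, before ATRA, and 10.87, 11.17 and 10.98 after it. The untreated knockdown arrays were thus the 3 lowest of the 12, and the knockdown arrays on ATRA overlapped the control range. INSIG1 rose by 0.75 (SE 0.14, 1.68-fold, adjusted p = 0.00302) in knockdown cells, and its change in control cells was 0.14 (adjusted p = 0.473). Without the untreated scrambled replicate 2 that change was 0.28 (adjusted p = 0.133).

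SREBF1 rose in knockdown cells by 0.63 (SE 0.15, 1.54-fold, adjusted p = 0.0102) and SREBF2 by 0.53 (SE 0.14, 1.44-fold, adjusted p = 0.0182), and their changes in control cells were 0.24 and 0.25 (adjusted p = 0.222 and 0.179). Without the untreated scrambled replicate 2, SREBF1 and NPC1 passed the threshold in control cells and MSMO1 did not. The SREBF2 call was lost without the untreated shRNA2 array (0.46, adjusted p = 0.0715) or the ATRA shRNA1 replicate 2 (0.0582), and the SREBF1 call with scrambled and shRNA1 arrays only (0.46, 0.155). INSIG2 passed in neither arm.

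SCAP, the escort of the SREBPs, went the other way. It was 9.89, 9.90 and 9.92 in untreated and 9.63, 9.74 and 9.55 in ATRA-treated control cells, and 9.95, 9.98 and 9.95 and then 9.81, 9.86 and 9.76 in knockdown cells. Treated and untreated arrays did not overlap in either arm. SCAP fell by 0.26 (SE 0.07, adjusted p = 0.0106) in control cells, a call that was also lost with scrambled and shRNA1 arrays only (adjusted p = 0.115), and its change in knockdown cells was -0.15 (adjusted p = 0.146).

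Before ATRA, 25 of the 29 genes were lower in knockdown than in control cells on average, but no gene passed the test. In limma 0 of 29 and 0 of 18404 genes were called (0%, adjusted p = 0.999 for each of the 29). At an unadjusted p under 0.05, 8 of 29 were lower (INSIG1, STARD4, LSS, MVD, DHCR7, MVK, ACAT2 and FDPS), where 2.33% of all genes were, and 1 was higher (NR1H3), where 1.62% were. The median difference was -0.21 over the 29 genes and -0.23 over the 16 synthesis genes, 14 of them negative, against 0.00 over all genes. In 7 genes (INSIG1, STARD4, LSS, MVD, MVK, ACAT2 and IDI1) all 3 knockdown arrays lay below all 3 control arrays, where 4.04% of all genes did. Genes of a pathway that share 1 regulator are not independent of each other, and each arm is 3 arrays.

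INSIG1 showed the lowest value, with knockdown arrays at 9.98 to 10.46 and control arrays at 10.89 to 11.34, a difference of -0.80 (SE 0.14, unadjusted p = 0.000143 in limma). LSS was 9.52 in wild type, 9.64 and 9.43 in scrambled, 9.30 and 9.26 in shRNA1 and 9.20 in shRNA2 cells. The arms of LSS did not overlap and differed by -0.28 (SE 0.08, unadjusted p = 0.00437 in limma). STARD4 differed by -0.50 (SE 0.15, unadjusted p = 0.00638), MVD by -0.31 (SE 0.09, unadjusted p = 0.00682) and DHCR7 by -0.45 (SE 0.14, unadjusted p = 0.00696), the last with overlapping arms. After ATRA the LSS levels were 9.55, 9.43 and 9.51 in control and 9.33, 9.52 and 9.38 in knockdown cells, which overlapped. ABCA1 differed by -0.01 (SE 0.19) before ATRA, ABCG1 by -0.10 (SE 0.08) and SOAT1 by -0.11 (SE 0.12).

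Which control array was high differed between the genes. The untreated scrambled replicate 1 was the highest of the 6 untreated arrays for 15 of the 29 genes, 13 of them synthesis genes, against 20% of all genes, and the untreated scrambled replicate 2 was highest for 8 (MVK, IDI1, INSIG1, SREBF1, STARD4, NPC1, NPC2 and MYLIP), near its 22.5% of all genes. The untreated shRNA2 array was the lowest for 10, against 15.7% of all genes, and the untreated shRNA1 replicate 1 for 8, against 13.5%. Without replicate 1 the synthesis median was -0.14 and without replicate 2 it was -0.29, and 10 genes were lower at an unadjusted p in either case. Without replicate 2 the differences were -0.65 for INSIG1, -0.33 for STARD4 and -0.33 for LSS, and that of NPC2 went from -0.41 to -0.09. All 5 granulocyte markers were also lower on average in untreated knockdown cells (0 called, 1 lower at an unadjusted p), and their part in these differences was not tested.

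**Figure D3:**
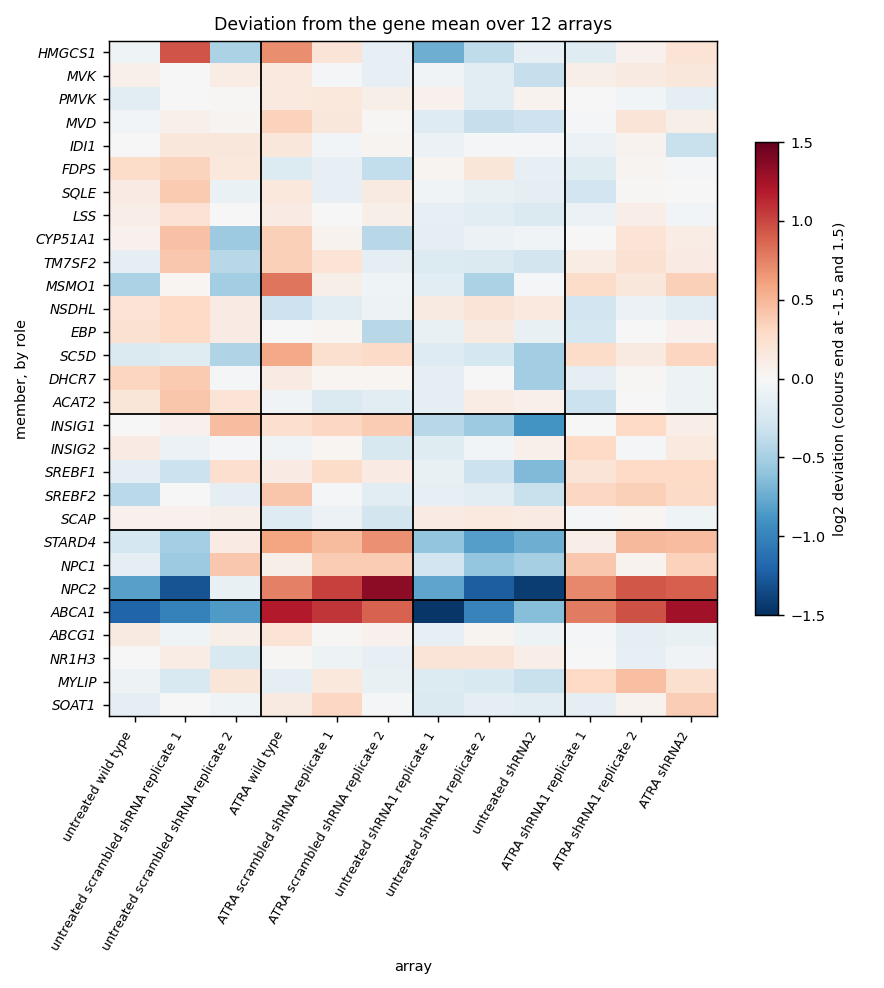
Deviation of each of 29 genes (rows, grouped by role) from its own mean over 12 arrays (columns), on the log2 scale, red above and blue below. ABCA1 and NPC2 switch from blue to red on ATRA in both arms. STARD4 does so too, except that it is pale red on the untreated scrambled shRNA replicate 2. The untreated scrambled shRNA replicate 1 is the reddest untreated column among the synthesis genes, and the untreated knockdown columns are blue for INSIG1.

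After ATRA the levels in the 2 arms were closer. None of the 29 genes was called in limma (11 of 18404 were, 0.0598%, and 701 without the untreated scrambled replicate 2, where still none of the 29 was), 13 were higher and 16 lower in knockdown cells on average, and the median difference was -0.01 against -0.03 over all genes. At an unadjusted p under 0.05 there were 4 genes of 29, where 28.1% of all genes passed: MYLIP and SCAP were higher in knockdown cells, and ABCG1 and PMVK lower. MYLIP, at 9.72 to 9.93 against 9.35 to 9.64, differed by 0.36 (SE 0.11, 1.28-fold, adjusted p = 0.0859), and SCAP, at 9.76 to 9.86 against 9.55 to 9.74, by 0.17 (SE 0.07, adjusted p = 0.13). ABCG1, at 7.13 to 7.24 against 7.29 to 7.48, differed by -0.19 (SE 0.08, adjusted p = 0.152). INSIG1 differed by -0.19 (SE 0.14, adjusted p = 0.406).

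The difference between the ATRA responses of knockdown and control cells was tested directly and passed for no gene. In limma 0 of 29 and 0 of 18404 genes were called (0%), and 4 of 29 were higher at an unadjusted p under 0.05 (MYLIP, INSIG1, MVK and FDPS), where 5.71% of all genes were. The difference was positive in 22 of 29 genes, with a median of 0.22 against -0.01 over all genes, and in the synthesis group the median was 0.19. The latter was -0.01 without the untreated scrambled replicate 1 and 0.27 without replicate 2, and 0.30 without the wild type ATRA array. This contrast contains the same untreated arrays as the comparison before ATRA, so the lower levels there and the positive differences here are not separate evidence. MYLIP differed by 0.57 (SE 0.16, adjusted p = 0.271), INSIG1 by 0.61 (SE 0.20, adjusted p = 0.276), FDPS by 0.40 (SE 0.14, adjusted p = 0.277) and MVK by 0.38 (SE 0.13, adjusted p = 0.277). Without the untreated scrambled replicate 2 the differences were 0.46 for MYLIP, 0.47 for INSIG1 and 0.36 for MVK. The calls that were made in knockdown but not in control cells, such as those of SREBF1, SREBF2 and NPC1, are therefore not shown to differ between the arms.

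**Figure D4:**
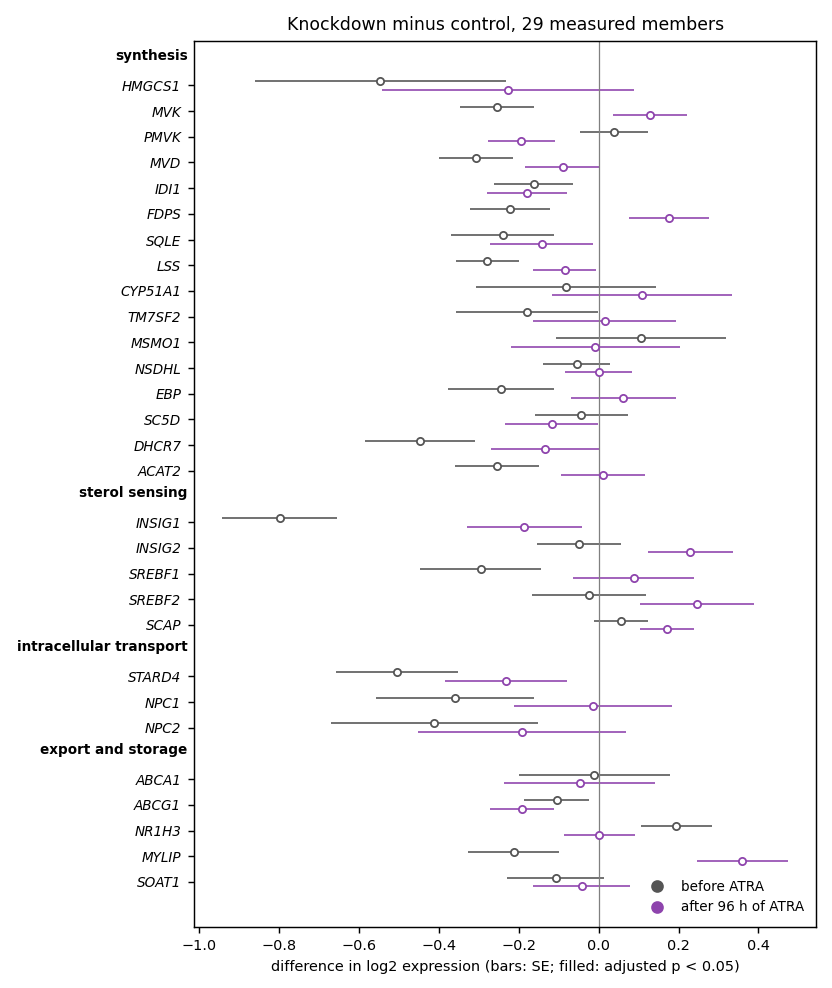
Difference in log2 expression between knockdown and control cells (x axis, knockdown minus control) for the 29 measured genes, untreated (grey) and after 96 hours of ATRA (purple), 3 arrays per arm. Points are fitted differences and bars standard errors. No point is filled, since none had an adjusted p under 0.05, and the grey points lie left of 0 for 25 of 29 genes, lowest for INSIG1 at -0.80.

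The wider pathway was described through 5 further lists, whose counts are to be read against these shares of all genes. Of 14 measured genes among other SREBP targets and lipid synthesis enzymes, 1 rose and 4 fell in control cells, where 15.2% and 20.9% of all genes did, and 5 rose and 4 fell in knockdown cells, where 10.1% and 14.7% did. ACSS2, which makes acetyl-CoA from acetate, rose by 1.17 (adjusted p = 0.000773) and 1.08 (adjusted p = 0.00186). FASN, the fatty acid synthase, fell by 0.93 and 0.47 (adjusted p = 0.000732 and 0.0372), and TMEM97, a sterol-regulated membrane protein, by 0.67 and 0.43 (adjusted p = 0.000638 and 0.0115). FADS1, a fatty acid desaturase, fell by 1.04 in control cells (adjusted p = 0.00387), and its change in knockdown cells was -0.45 (adjusted p = 0.182). ELOVL5 and ELOVL6, fatty acid elongases named after their values were seen, rose in knockdown cells by 0.39 and 0.79 (adjusted p = 0.0092 and 0.0486), and their changes in control cells were 0.17 and -0.20 (adjusted p = 0.18 and 0.566).

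Of 12 genes of SREBP processing, transport and turnover, 6 fell in control cells and 2 in knockdown cells and none rose, with medians of -0.31 and -0.14. Over all genes 20.9% and 14.7% fell, so the count in knockdown cells was near the background. MBTPS2 and MBTPS1, the proteases that release the SREBPs, fell by 0.52 and 0.38 in control cells (adjusted p = 0.00191 and 0.00982), and their changes in knockdown cells were -0.15 and -0.06. SAR1B, a GTPase of the vesicles that leave the endoplasmic reticulum, fell in both (by 0.50 and 0.65, adjusted p = 0.00436 and 0.0014). Of 13 genes of the non-sterol branches of the mevalonate pathway, 1 rose and 6 fell in control cells, and 1 rose and 3 fell in knockdown cells, the latter near the 10.1% and 14.7% of all genes. ICMT and RCE1, which finish prenylated proteins, fell in both arms, ICMT by 0.76 and 0.57 (adjusted p = 0.000517 and 0.00413) and RCE1 by 0.68 and 0.45 (adjusted p = 0.00117 and 0.0165).

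On the export side, of 9 partners and targets of the liver X receptors, none rose and 1 fell in control cells, and 2 rose (PLTP and NCOA1) and 1 fell in knockdown cells. The gene that fell was RXRA, the receptor that pairs with both liver X and retinoic acid receptors, by 0.98 (adjusted p = 0.00128) and 1.41 (adjusted p = 0.000386). NR1H3 was not called with all arrays and was dim on 12 of 12 arrays, and NR1H2, which encodes the other liver X receptor, had no value here. The part of these receptors in the rise of ABCA1 was not tested. Of 23 genes of lipoprotein uptake, lysosomal release and storage, 7 rose and 3 fell in control cells and 6 rose and 2 fell in knockdown cells, against 15.2% and 20.9% of all genes in control and 10.1% and 14.7% in knockdown cells. CYP27A1, which makes an oxysterol from cholesterol, rose by 1.03 and 0.40 (adjusted p = 0.000177 and 0.0409), and OLR1, a scavenger receptor, by 1.23 and 1.55 (adjusted p = 0.000771 and 0.000486). SCARB1, a lipoprotein receptor, fell by 0.76 and 0.68 (adjusted p = 0.000702 and 0.00194). CD36, a scavenger receptor named for its size after its value was seen, rose by 3.24 in control cells (SE 0.75, adjusted p = 0.00601), and its change in knockdown cells was 2.20 (adjusted p = 0.0509).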

How the data were processed

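Total RNA of NB4 cells was labelled with biotin and hybridised to 12 Affymetrix ST arrays, per the labels. The authors deposited log2 values made with RMA, and RMA and limma are named without version or settings in the submitters' processing notes. The values were used as deposited. Of 32321 probe sets, 19158 had 1 gene in GEO's platform annotation; the brightest over 12 arrays was kept per gene, which gave 18404 genes, with none left out for a low value. The test was limma 3.58.1 (R 4.3.3, 4 arm means, eBayes defaults, 8 residual degrees of freedom), two-sided, with Benjamini-Hochberg adjustment over all genes within each of 5 contrasts and a threshold of 0.05; the scripts were tested on simulated data. With 3 arrays on each side, exact permutation could reach no p below 0.1. For arrays, their number limits the precision. The genes and lists were chosen with earlier results of these data known. Values in every array are given for genes called on ATRA with a log2 change of at least 0.8, for the 3 with the smallest p in each contrast between knockdown and control, and for others chosen after their values were seen. Wider lists name up to 4 genes by smallest p in control cells. Alternatives were a block for the kind of cell and replicate number, each array left out, scrambled and shRNA1 arrays only, and quantile normalization. Others were the lowest 33.3% of genes left out, the mean of probe sets, array weights and a trended robust prior. Promoters are RefSeq windows, searched for exact motifs on both strands.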

Additional observations from a re-analysis of the deposited data

How the results depend on the processing

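Of 21 calls of single genes on ATRA, tried under 20 settings (420 values), 33 values lost the call and 0 reversed. In control cells the number of the 29 genes that rose (5) was 3 with scrambled and shRNA1 arrays only, 8 after quantile normalization and 10 with array weights, and the number that fell (4) was 1 with scrambled and shRNA1 arrays only and 2 after quantile normalization. In knockdown cells the number that rose (11) was 7, and that which fell (1) was 0, with scrambled and shRNA1 arrays only, and 2 fell with array weights. The subset of scrambled and shRNA1 cells has fewer arrays; the cause of the other shifts was not tested. Untreated, 8 genes lower in knockdown cells at an unadjusted p were 4 with scrambled and shRNA1 arrays only and 13 with array weights. Leaving out 1 array at a time gave 4 to 6 higher and 4 to 5 lower in control cells, 8 to 12 higher and 0 to 2 lower in knockdown cells (0 without the ATRA shRNA1 replicate 1, 2 without the untreated scrambled replicate 2), 6 to 10 lower at an unadjusted p before ATRA, and 0 called for both comparisons of knockdown with control and for the difference in response. Over all genes, the 11 calls after ATRA became 24 after quantile normalization, 28 with a trended robust prior, 63 with the lowest 33.3% of genes left out, 696 with array weights and 0 with scrambled and shRNA1 arrays only. With 1 array left out they ranged from 0 to 701: 701 without the untreated scrambled replicate 2, 78 without the ATRA scrambled replicate 1, 43 without the untreated shRNA2 array, 8 without the untreated scrambled replicate 1, 3 without the wild type ATRA array, 1 without the ATRA shRNA1 replicate 2, and 0 without any other. The untreated and ATRA arrays of the same kind of cell and replicate number were also taken as a block. With a fixed block, control cells had 5 higher and 5 lower genes, EBP being added. Knockdown cells had 10 higher and 1 lower, MVK being lost (adjusted p = 0.0544 in limma). With a random block (correlation 0.0354) no member's call changed. Deviations from the arm means correlated between -0.17 and 0.23 within these blocks, so kind of cell and number paired the samples weakly at most. A fixed block cannot give knockdown against control, since each kind of cell is one or the other. Genes in the lowest 33.3% have no value under the setting that leaves them out. The number of arrays, 3 per arm, and the dim signals of ABCG1, NR1H3 and INSIG2 limit what could be detected.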
